A study of Mus musculus with 6 samples.

Results

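The genes that build, load and switch on the MHC class II antigen presentation machinery were followed in reporter-positive B lineage cells of the mouse gut and bone marrow. They were chosen by gene symbol, with earlier results of these data known, and are 8 of the 19938 genes with a probe set of 1 symbol on the arrays. The 8 are the classical chains H2-Aa, H2-Ab1 and H2-Eb1, the invariant chain gene Cd74, the loading genes H2-DMa, H2-Oa and H2-Ob, and the transactivator gene Ciita. Each of the 8 was measured by 1 probe set. The cells came from RAG2-GFP/129Sve mice of postnatal days 17 to 25, kept under specific pathogen free conditions, and were sorted for the green fluorescent Rag2 reporter from the lamina propria of the small intestine and from the bone marrow. Rag2 is needed to assemble antigen receptor genes, so green cells are those with the gene active now or a short time ago. Each tissue gave 3 pools, each pool was hybridised to 1 array, and 8 to 12 mice were used per experiment. All 6 pools share strain, age and reporter, and no gate of the sort beyond the reporter is stated in the labels.

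MHC class II molecules are pairs of an alpha and a beta chain that show peptides from endocytosed protein to CD4+ T cells. New pairs travel with the invariant chain, whose remnant fills the groove until the DM molecule exchanges it for a peptide, and DO, found mainly in B cells and thymic epithelium, holds DM back. Expression of the whole set depends on CIITA, which is recruited to the promoters by a complex of RFX, CREB and NF-Y proteins, and in mouse B cells the surface level of class II increases as the cells mature beyond the pre-B stage.

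Several of these genes share promoter elements. In classical descriptions RFX binds the X box and NF-Y the Y box, a CCAAT box in reverse, a fixed distance downstream. The promoter table of RefSeq (GRCm38.p6, 250 bases before to 50 after each start) held H2-Aa, H2-Eb1, H2-DMa, H2-Oa and H2-Ob among the 8, while H2-Ab1, Cd74 and Ciita were not matched. The letters AGNAAC (core of the X box) and ATTGG (Y box), searched on both strands, occur in 48.1% and 37.4% of the 32851 promoters of this length. Both on 1 strand, with 24 to 32 bases between them, occur in 0.475%, among them H2-Eb1, H2-Oa, H2-Ob and the neighbouring beta chain paralog H2-Eb2. H2-Aa holds the pair with the shorter core GNAAC, chosen after its sequence was seen, which occurs with ATTGG in 1.54% of promoters. The stretches below are shown because they carry this shared arrangement, with the X box core GNAAC and the Y box ATTGG in capitals, 10 flanking bases on each side, and the strand of the gene.
H2-Aa: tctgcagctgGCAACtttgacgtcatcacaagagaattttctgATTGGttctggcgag
H2-Eb1: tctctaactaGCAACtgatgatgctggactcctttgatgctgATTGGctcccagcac
H2-Eb2: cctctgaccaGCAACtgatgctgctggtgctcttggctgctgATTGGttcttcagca
H2-Oa: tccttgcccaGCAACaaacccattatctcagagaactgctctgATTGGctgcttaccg
H2-Ob: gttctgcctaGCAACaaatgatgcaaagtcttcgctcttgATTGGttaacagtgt
They lie at chr17:34287857-34287914 on the minus strand for H2-Aa, and on the plus strand at chr17:34305766-34305822 for H2-Eb1, chr17:34325533-34325589 for H2-Eb2, chr17:34092293-34092350 for H2-Oa and chr17:34238808-34238862 for H2-Ob. The gap between the capitals is 28 bases in H2-Aa and H2-Oa, 27 in H2-Eb1 and H2-Eb2, and 25 in H2-Ob. The Y box begins 48 bases before the annotated start in H2-Aa, 59 in H2-Eb1, 43 in H2-Oa and 57 in H2-Ob, and 100 bases before it in H2-Eb2. Neither of the 2 promoters listed for H2-DMa holds the pair. Among the genes for the DM beta chain, outside the 8, the promoter of H2-DMb1 holds the AGNAAC pair, with a gap of 28 bases. That of H2-DMb2 does not. A match describes letters only, and says nothing about binding in these cells. On chromosome 17 the members run in the order H2-Oa, H2-DMa, H2-Ob, H2-Ab1, H2-Aa and H2-Eb1, and Ciita lies on chromosome 16.

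All values are log2 RMA values as deposited, with array medians of 5.34 to 5.48, and 1 log2 unit is a 2-fold difference. Levels are compared between samples, and between genes only where a percentile of all genes within an array places a gene on that array, which does not compare transcript amounts. Differences are lamina propria minus bone marrow, from limma fitted over all 19938 genes, with 95% intervals and Benjamini-Hochberg adjusted p. The libraries of lamina propria pools 1 and 2 stand apart. Across genes they correlated at 0.766 to 0.832 with the other 4 arrays, while lamina propria pool 3 correlated at 0.954 to 0.966 with the marrow arrays. Genes with a marrow mean of 4 to 6 had medians 0.40 to 0.54 above that mean in pools 1 and 2, genes at 7 to 8 had medians 1.02 and 1.07 below it, and the same medians lay between -0.054 and 0.006 in pool 3. Values of the 8 are therefore given by pool, and other genes by pool where the pools disagreed most. At an adjusted p under 0.05 limma made 0 calls in either direction. At an unadjusted p under 0.05, 1103 genes (5.53%) were higher and 1625 (8.15%) lower, and trend with robust variances gave 40 adjusted calls.

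The class II genes were higher in lamina propria pool 3 for the classical chains and the invariant chain, and in every lamina propria pool for Cd74 and Ciita, while the DO chains were not. None of the 8 passed the limma test over all genes (0.0% of all genes were called in either direction). Every lamina propria pool lay above every marrow pool for 2 of the 8, Cd74 and Ciita, where 14.8% of all genes did so. For none of the 8 did every lamina propria pool lie below every marrow pool, against 7.27% of all genes. The median difference over the 8 was 0.44, against 0.22 over all genes, with 6 of the 8 positive and 13486 of all 19938 genes. The order turned round without lamina propria pool 3, where the median was 0.09 over the 8 and 0.33 over all genes. It also turned with array weights, where the medians were 0.15 and 0.30, and where pool 3 had the lowest weight (0.1526). In bulk RNA, more cells of a class II positive type and more RNA per cell cannot be told apart.

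**Figure D1:**
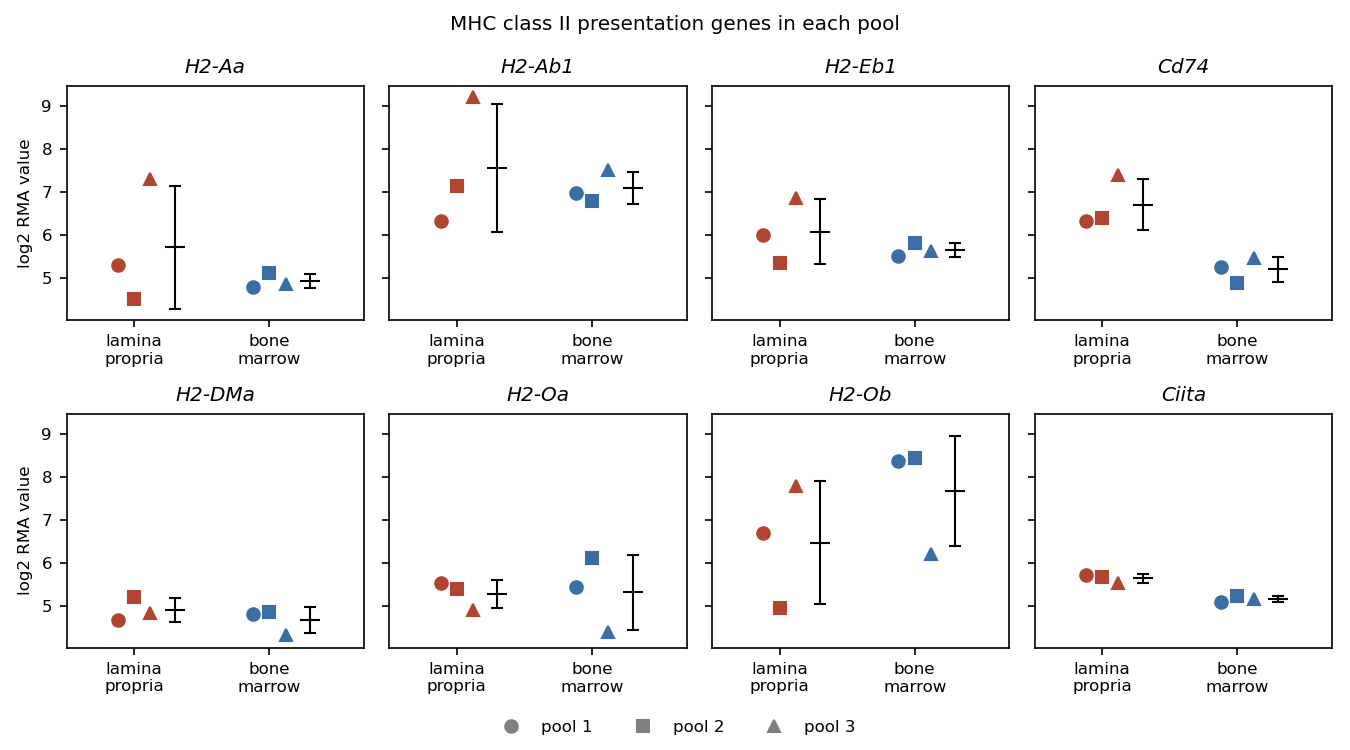
Log2 RMA value (vertical axis) of each class II presentation gene in the lamina propria pools (red, left) and the bone marrow pools (blue, right), with symbols for pool number and bars for mean and SD (n = 3). Cd74 and Ciita do not overlap between the tissues, and lamina propria pool 3 is the highest array for H2-Aa, H2-Ab1, H2-Eb1 and Cd74.

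H2-Aa, the alpha chain of the I-A molecule, had values of 5.32, 4.53 and 7.31 in lamina propria pools 1, 2 and 3, against 4.81, 5.14 and 4.88 in marrow pools 1, 2 and 3. Pool 3 stood far above all the others, pool 2 below them all, and the tissues overlapped. The mean was 5.72 ± 1.43 in the lamina propria and 4.94 ± 0.17 in the marrow (SD, n = 3 each). The difference of 0.78 (95% interval -0.72 to 2.28, limma adjusted p = 0.448) was smaller than the SD of the lamina propria pools.

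H2-Ab1, the beta chain that pairs with it, had values of 6.33, 7.15 and 9.22 in the lamina propria pools, against 6.99, 6.79 and 7.53 in the marrow pools. Pool 3 was again the highest array, while pool 1 was the lowest and pool 2 lay inside the marrow range. The mean was 7.57 ± 1.49 in the lamina propria and 7.101 ± 0.38 in the marrow (SD, n = 3 each). The difference was 0.47 (95% interval -1.12 to 2.05, limma adjusted p = 0.638).

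H2-Eb1, the beta chain of the I-E molecule, had values of 6.01, 5.36 and 6.87 in the lamina propria pools, against 5.51, 5.82 and 5.64 in the marrow pools. Pools 1 and 3 lay above every marrow pool and pool 2 below every one. The difference was 0.42 (95% interval -0.45 to 1.30, limma adjusted p = 0.471). The gene of the partner alpha chain, H2-Ea, is annotated as a transcribed pseudogene in the reference strain. It had values of 4.18, 4.53 and 3.48 in the lamina propria pools, against 3.57, 3.73 and 3.68 in the marrow pools, with overlap.

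H2-Eb2, a beta chain paralog next to H2-Eb1, was the other gene of the region outside the 8 with a probe set of 1 symbol. It had values of 5.59, 5.68 and 6.53 in the lamina propria pools, against 5.01, 4.94 and 4.84 in the marrow pools, without overlap. The difference was 1.00 (95% interval 0.34 to 1.67, limma adjusted p = 0.342), a 2.01-fold difference. Expression of the 2 genes for the beta chain of DM was not analysed here, since no probe set carries 1 of their symbols alone.

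Cd74, the invariant chain on chromosome 18, showed the largest difference of the 8. Its values were 6.34, 6.40 and 7.41 in the lamina propria pools, against 5.26, 4.89 and 5.48 in the marrow pools. The lowest lamina propria pool lay above the highest marrow pool, and pool 3 was the highest array. The mean was 6.71 ± 0.60 in the lamina propria and 5.21 ± 0.29 in the marrow (SD, n = 3 each). The difference of 1.50 (95% interval 0.72 to 2.29) corresponds to 2.84-fold, and missed the threshold over all genes (limma adjusted p = 0.281). By rank, Cd74 stood at percentiles 75.7, 78.1 and 86.3 of all genes in the lamina propria arrays, against 44.3, 34.5 and 52.3 in the marrow arrays.

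The gap for Cd74 exceeded the median of genes at its level in each pool. It lay 1.13, 1.19 and 2.20 above the marrow mean in lamina propria pools 1, 2 and 3, whereas all genes with a marrow mean of 5 to 6 had medians of 0.44, 0.40 and -0.02 in these pools. Without lamina propria pool 3 the difference was 1.16 and passed (limma adjusted p = 0.0208), in a comparison that called 24.1% of all genes higher and 12.1% lower. Over 14 alternatives the adjusted p of Cd74 ran from 0.0208 to 0.607, and its difference from 1.16 to 2.20.

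Ciita, the transactivator, differed by less, with pools close to each other in both tissues. Its values were 5.73, 5.69 and 5.53 in the lamina propria pools, against 5.09, 5.23 and 5.17 in the marrow pools, without overlap. The mean was 5.65 ± 0.10 in the lamina propria and 5.16 ± 0.07 in the marrow (SD, n = 3 each). The difference of 0.49 (95% interval 0.05 to 0.93, limma adjusted p = 0.356) corresponds to 1.40-fold. In pools 1 and 2 the gene lay 0.57 and 0.53 above the marrow mean, near the medians of 0.44 and 0.40 for all genes of its level, and in pool 3 it lay 0.37 above against -0.02. Without pool 3 it passed (difference 0.55, limma adjusted p = 0.0334), in a comparison that called 24.1% of all genes higher and 12.1% lower. Over 14 alternatives its limma adjusted p ran from 0.0334 to 0.774.

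The loading genes gave no difference beyond the spread between pools. H2-DMa, the alpha chain of DM, had values of 4.67, 5.21 and 4.85 in the lamina propria pools, against 4.82, 4.87 and 4.34 in the marrow pools. The ranges overlapped, and the difference was 0.23 (95% interval -0.35 to 0.82, limma adjusted p = 0.534).

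H2-Oa, the alpha chain of DO, had values of 5.53, 5.41 and 4.92 in the lamina propria pools, against 5.45, 6.12 and 4.40 in the marrow pools. The marrow pools spanned 1.72 log2 units and enclosed all lamina propria pools. The difference was -0.04 (95% interval -1.05 to 0.97, limma adjusted p = 0.953).

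H2-Ob, the beta chain of DO, had the most negative difference of the 8. It had values of 6.70, 4.95 and 7.79 in the lamina propria pools, against 8.38, 8.43 and 6.20 in the marrow pools. Lamina propria pool 2 and marrow pool 3 were the lowest arrays, and the tissues overlapped. The mean was 6.48 ± 1.43 in the lamina propria and 7.67 ± 1.27 in the marrow (SD, n = 3 each). The estimate was -1.19 (95% interval -3.14 to 0.76, limma adjusted p = 0.406). In pools 1 and 2 it lay -0.97 and -2.72 from the marrow mean, where genes at a marrow mean of 7 to 8 had medians of -1.02 and -1.07. In pool 3 it lay 0.11 above the marrow mean, so the negative sign came from pools 1 and 2. The difference was -0.43 without lamina propria pool 2, -1.85 without lamina propria pool 3, and -1.93 without marrow pool 3, where all lamina propria pools lay below the marrow pools (limma adjusted p = 0.58).

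**Figure D2:**
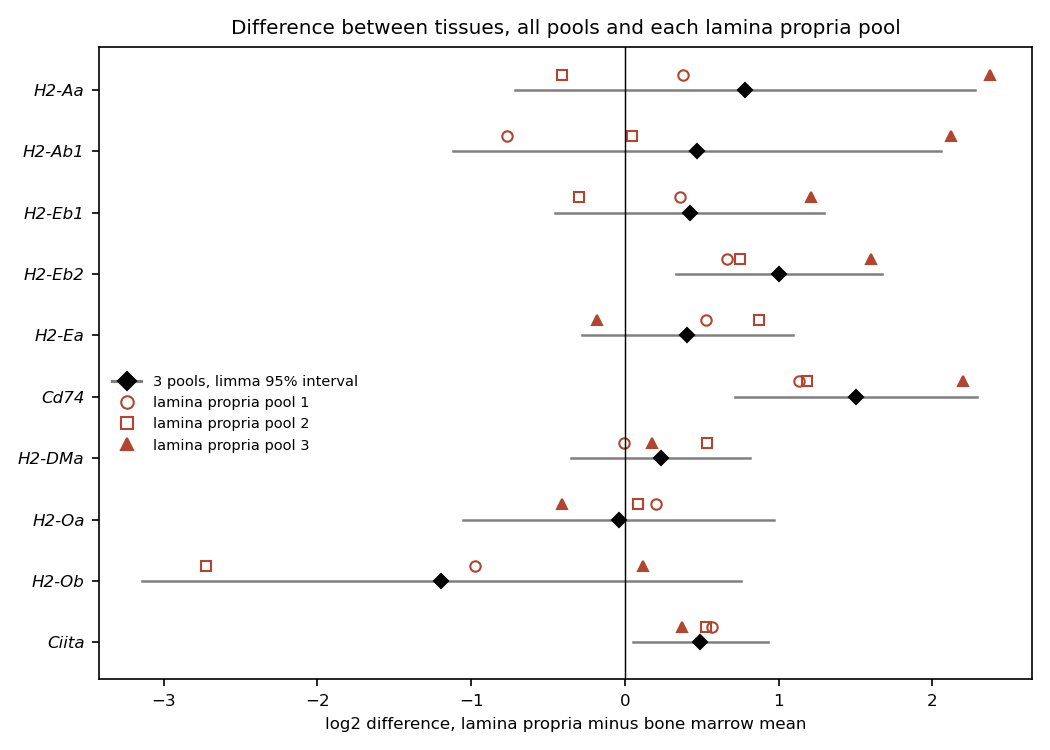
Log2 difference between lamina propria and bone marrow (horizontal axis) for the 8 members and the neighbouring H2-Eb2 and H2-Ea. Black diamonds with lines are the limma estimate over 3 pools with its 95% interval, and red symbols are each lamina propria pool minus the marrow mean. The intervals of Cd74, Ciita and H2-Eb2 lie above 0, and pool 3 lies 2 or more above 0 for H2-Aa, H2-Ab1 and Cd74.

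Lamina propria pool 3 held the large class II values. This pool most resembled the marrow arrays across all genes, yet H2-Aa lay 2.37, Cd74 2.20 and H2-Ab1 2.12 above the marrow mean in it, which is 5.18-fold, 4.58-fold and 4.35-fold. H2-Eb1 lay 1.21 and H2-Eb2 1.60 above. Ordered by this difference over the 19938 genes, H2-Aa ranked 15, Cd74 20, H2-Ab1 29, H2-Eb2 77 and H2-Eb1 184 from the top.

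Of the 8, 5 lay above every marrow pool in pool 3 (24.8% of all genes did) and 0 below every one (26.7% did). The other 3, H2-DMa, H2-Oa and H2-Ob, lay at 0.17, -0.41 and 0.11 from the marrow mean, all inside the marrow range. Pool 3 alone is a single array, and the limma comparison that assumes it varies like the marrow arrays called 0.0% of all genes. In it the intervals were 1.83 to 2.92 for H2-Aa, 1.24 to 3.00 for H2-Ab1, 0.69 to 1.73 for H2-Eb1 and 1.47 to 2.92 for Cd74 (limma adjusted p = 0.363 each), and 769 genes (3.86%) were higher at an unadjusted p under 0.05.

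In pool 1, 4 of the 8 lay above every marrow pool (59.7% of all genes did) and 1 below (24.1%), and in pool 2 the counts were 3 above (58.4%) and 3 below (25.2%). In lamina propria pools 1 and 2 the classical chains lay on both sides of the marrow mean. H2-Aa and H2-Eb1 were above every marrow pool in pool 1 and below every one in pool 2. H2-Aa was 0.38 above in pool 1 and -0.41 in pool 2, H2-Eb1 0.36 above and -0.30, and H2-Ab1 -0.77 and 0.05. Genes with a marrow mean of 7 to 8, where H2-Ab1 lies, had medians of -1.02 and -1.07 in these pools, and genes at 4 to 5, where H2-Aa lies, had 0.52 and 0.54. The mean difference of the classical chains between the tissues thus rested on 1 array. Without pool 3 it was -0.02 for H2-Aa (limma adjusted p = 0.966), -0.36 for H2-Ab1 (limma adjusted p = 0.397) and 0.03 for H2-Eb1 (limma adjusted p = 0.925).

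**Figure D3:**
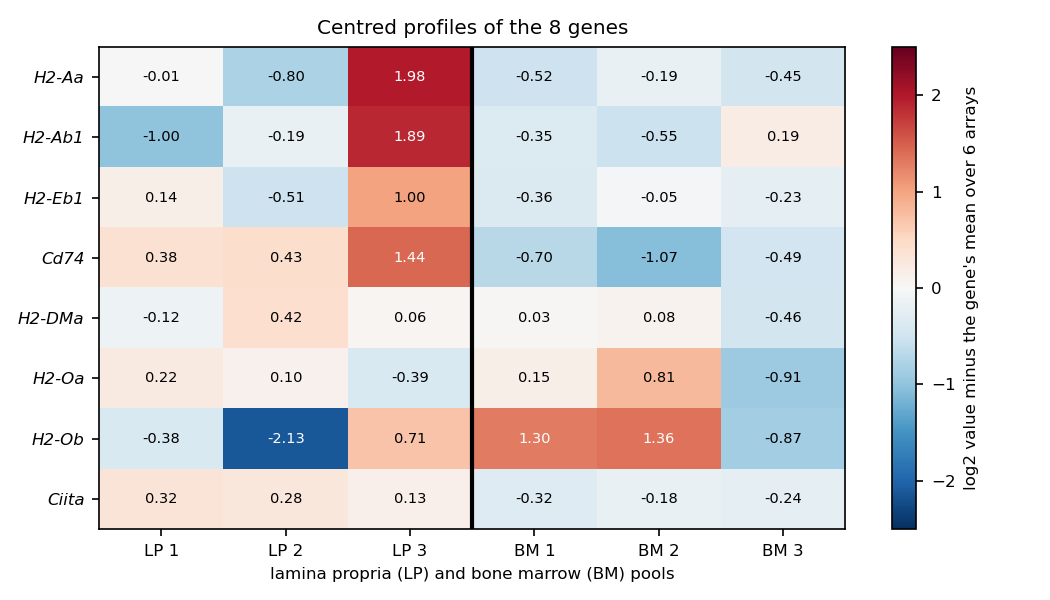
Value of each member in each array minus that gene's mean over the 6 arrays (log2 units, red above and blue below), with the lamina propria pools left of the line and the marrow pools right of it. H2-Aa, H2-Ab1, H2-Eb1 and Cd74 share a high value in lamina propria pool 3, and H2-Ob and H2-Oa share low values in marrow pool 3.

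The 8 did not form a single pattern. The mean centred profile of H2-Aa, H2-Ab1, H2-Eb1 and Cd74 stood at -0.12, -0.27 and 1.58 in the lamina propria pools and at -0.48, -0.46 and -0.24 in the marrow pools. Likeness was measured over the 6 arrays as the root mean square difference between centred profiles, whose median over all genes was 0.83 log2 units. The 4 genes that made up the profile were 0.31 to 0.45 from it. Ciita was 0.67 and H2-DMa 0.75 away, which ranked them 1577 and 4265 of 19938. No limit on range was set for these ranks, and a gene that varies little also stays at a moderate distance. The ranks of Ciita and H2-DMa therefore do not show a shared pattern. Ciita was lowest of the lamina propria pools in pool 3 (5.53, against 5.73 and 5.69 in pools 1 and 2). H2-Oa and H2-Ob, at 1.05 and 1.36, ranked 17701 and 19285, near the far end.

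Genes outside the 8 with the most similar profiles, among the 2586 whose range over the arrays was at least that of the profile, were C3ar1, Rbm7, Rasgef1b, Id2 and Rab35, at 0.21, 0.27, 0.27, 0.29 and 0.29. C3ar1 encodes the receptor for the complement fragment C3a. Its values were 3.70, 4.01 and 5.58 in the lamina propria pools, against 3.40, 3.68 and 3.41 in the marrow pools. Id2, an inhibitor of E proteins, had values of 4.78, 4.56 and 5.82 in the lamina propria pools, against 3.73, 3.79 and 4.35 in the marrow pools. Both were higher in each lamina propria pool than in any marrow pool, and both were highest in pool 3. For C3ar1 the margin was narrow, with 3.70 in lamina propria pool 1 against 3.68 in marrow pool 2. Genes with a marrow mean under 4, where both lie, had medians of 0.40, 0.50 and 0.01 in lamina propria pools 1, 2 and 3. Rasgef1b was also higher without overlap, while Rbm7 and Rab35 overlapped between the tissues. A shared profile over 6 arrays is a description, since a single array dominates it.

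The factors that assemble on class II promoters gave mixed values. Of the 7 listed and measured, 1 lay higher and 2 lower in the lamina propria without overlap, against 14.8% and 7.27% of all genes. The median difference was -0.55, and none passed over all genes. Rfxap, a subunit of the RFX complex, had values of 8.64, 8.36 and 7.42 in the lamina propria pools, against 7.31, 7.10 and 7.11 in the marrow pools, a difference of 0.97 (95% interval 0.20 to 1.74, limma adjusted p = 0.356). The other RFX subunits Rfx5 and Rfxank differed by 0.14 and 0.12. Creb1, a factor that binds next to the X box, had values of 7.36, 6.15 and 8.57 in the lamina propria pools, against 9.52, 8.96 and 9.55 in the marrow pools. The difference was -1.98 (95% interval -3.30 to -0.67, limma adjusted p = 0.342). All genes with a marrow mean of 9 to 10, where Creb1 lies, had medians of -1.03, -1.10 and 0.001 in these lamina propria pools. The NF-Y subunits Nfya and Nfyc differed by -0.55 and -0.84. Both have a marrow mean of 7 to 8, where all genes had medians of -1.02, -1.07 and -0.05 in lamina propria pools 1, 2 and 3. Nfyb lay 0.87, -3.25 and -0.25 from the marrow mean in lamina propria pools 1, 2 and 3, with a mean of -0.88. Taking only pool 3, the median of these factors was 0.05, and Rfxap and Creb1 lay 0.25 and -0.77 from the marrow mean.

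Genes that act on Ciita also did not pass. Of 12 listed, 11 were measured and 8 were positive, with a median of 0.08. Without overlap 1 lay higher (14.8% of all genes did) and none lower (7.27% did). Irf1, an interferon-induced activator of Ciita, had values of 8.94, 7.17 and 9.41 in the lamina propria pools, against 6.57, 7.57 and 7.62 in the marrow pools. Pools 1 and 3 lay above every marrow pool and pool 2 inside their range, and the difference was 1.25 (95% interval -0.12 to 2.63, limma adjusted p = 0.356). Among all genes its gap in pool 3, 2.16, ranked 25 from the top.

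Prdm1, which represses Ciita in plasma cells, was the gene without overlap. Its values were 5.05, 4.33 and 4.89 in the lamina propria pools, against 4.27, 3.9962 and 4.14 in the marrow pools (difference 0.62, limma adjusted p = 0.356). The transcription factors Spi1, Irf8 and Pax5 differed by 0.08, 0.02 and -0.62, each with overlap. Irf4, a factor of B cell and plasma cell development, had values of 9.64, 6.05 and 9.22 in the lamina propria pools, against 8.17, 7.99 and 8.53 in the marrow pools. Pools 1 and 3 lay 1.41 and 0.99 above the marrow mean and pool 2 at -2.18 from it, so that its mean difference was 0.08. The kinases of the interferon gamma receptor, Jak1 and Jak2, differed by -1.50 and -1.62 through pools 1 and 2. In pool 3 they lay 0.13 and 0.18 above the marrow mean. Genes with a marrow mean of 9 to 10, where Jak1 lies, had medians of -1.03 and -1.10 in pools 1 and 2. Genes at 7 to 8, where Jak2 lies, had -1.02 and -1.07. The receptor chains Ifngr1 and Ifngr2 differed by 0.15 and 0.30. Bcl6, a repressor active in germinal centre B cells, lay 1.41, -0.12 and 0.79 from the marrow mean in pools 1, 2 and 3. In pool 3, 9 of the 11 regulators were above the marrow mean, as were 9656 of all 19938 genes. Their median was 0.21, against -0.01 over all genes.

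Endolysosomal genes that cut antigen and the invariant chain, or form the compartment, lay lower at the median (-0.44), with 4 of 12 positive. Without overlap 1 lay higher and 1 lower, against 14.8% and 7.27% of all genes. In pool 3 alone the median was 0.33, and 10 of the 12 were above the marrow mean, as were 9656 of all 19938 genes. The sign of this list thus differed between the pools. Ctss, the protease that makes the last cut of the invariant chain in B cells, had values of 5.43, 8.46 and 8.56 in the lamina propria pools, against 8.74, 8.20 and 8.05 in the marrow pools. The low value of pool 1 set its difference of -0.85 (95% interval -2.70 to 1.00, limma adjusted p = 0.489). Sppl2a, which clears the remnant of the invariant chain from the membrane, had values of 5.87, 5.75 and 8.01 in the lamina propria pools. The marrow pools had 7.88, 7.75 and 8.48 (difference -1.49, limma adjusted p = 0.356). All genes with a marrow mean of 8 to 9, where Sppl2a lies, had medians of -1.375, -1.548 and -0.043 in lamina propria pools 1, 2 and 3. Cd74 itself was higher in all of these lamina propria pools.

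Ifi30, a reductase of disulfide bonds in antigens, had values of 6.89, 8.60 and 7.94 in the lamina propria pools, against 6.11, 6.70 and 6.92 in the marrow pools, a difference of 1.24 (95% interval 0.20 to 2.28, limma adjusted p = 0.356). The overlap came from lamina propria pool 1, which lay just under marrow pool 3. Ctsh was higher without overlap, by 0.53, and the lysosomal membrane gene Lamp2 lower without overlap, by -1.45. In lamina propria pools 1, 2 and 3 Lamp2 lay -1.51, -2.22 and -0.62 from the marrow mean. Genes with a marrow mean of 7 to 8, where Lamp2 lies, had medians of -1.02, -1.07 and -0.05. The remaining members Ctsl, Ctsb, Ctsd, Ctsz, Lgmn, Cst3 and Lamp1 differed by between -1.14 and 0.21, each with overlap. Among them Ctsd, Ctsl and Lamp1 lay 1.16, 0.92 and 0.69 above the marrow mean in pool 3, and between -1.02 and -0.004 from it in pools 1 and 2.

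Surface partners and turnover genes had positive differences for 10 of 10, with a median of 0.29, against 0.22 over all genes. By pool the median was 0.20, 0.34 and 0.39 in pools 1, 2 and 3, where all genes had 0.31, 0.31 and -0.01. Mif, a cytokine that binds the invariant chain at the surface, was the member higher without overlap (14.8% of all genes were). Its values were 9.88, 9.29 and 9.17 in the lamina propria pools, against 8.31, 8.96 and 8.32 in the marrow pools, a difference of 0.92 (95% interval 0.24 to 1.60, limma adjusted p = 0.356). The costimulatory genes Cd80, Cd86 and Cd40 differed by 0.01, 0.29 and 0.30. Marchf1 and Marchf8, ubiquitin ligases that remove class II from the surface, differed by 0.29 and 0.58. Cd63, a protein of late endosomes, had 6.29 in lamina propria pool 3, against 3.07 and 2.73 in pools 1 and 2 and 4.16, 4.69 and 3.02 in the marrow pools.

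**Figure D4:**
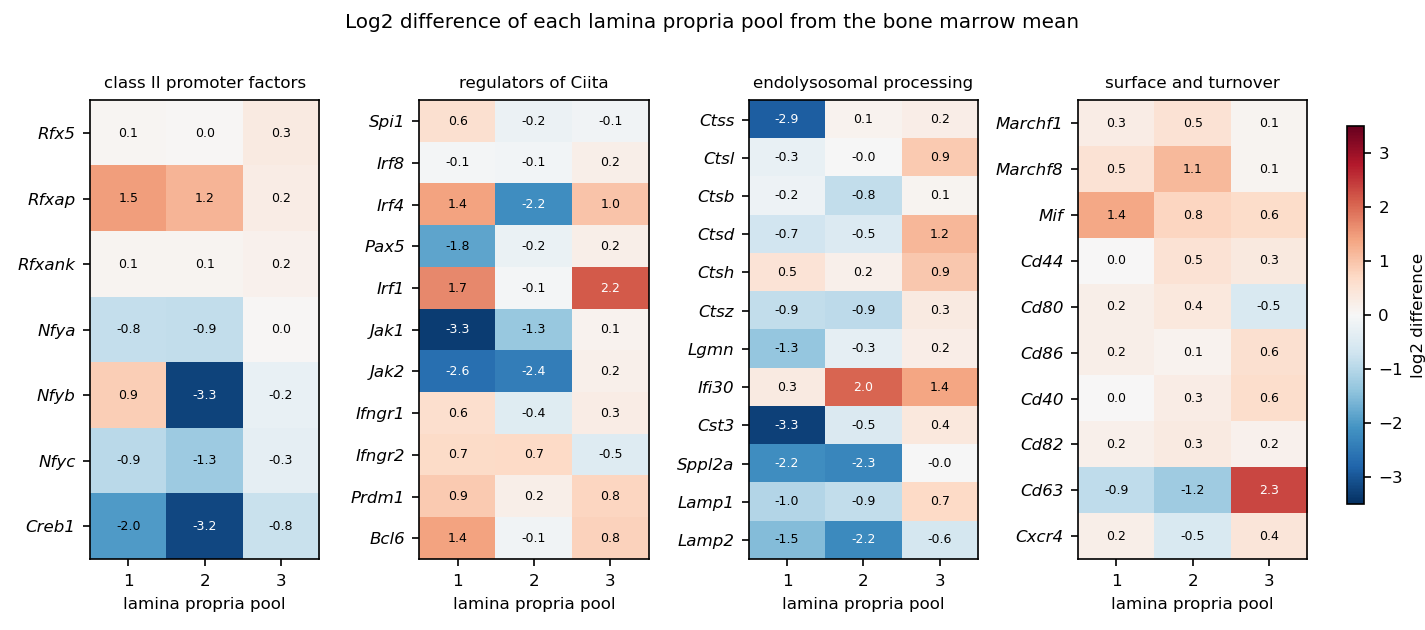
Log2 difference of each lamina propria pool (columns) from the bone marrow mean for the genes (rows) of 4 class II pathway lists, red above and blue below the marrow mean. Pools 1 and 2 hold the strongly negative values, such as those of Jak2, Sppl2a and Creb1, while in pool 3 the high values include Irf1 (2.16) and Cd63 (2.33).

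The sorted cells carried B lineage transcripts in both tissues. Ebf1, a factor that specifies B lineage cells, had 10.36, 10.57 and 10.61 in the lamina propria pools, against 10.73, 10.98 and 10.51 in the marrow pools, above percentile 99 of all genes in each array. Over 9 of 10 B lineage markers the median difference was -0.06, with 3 of 9 positive, and the summed log2 level was 82.6 to 85.0 in the lamina propria and 80.7 to 87.1 in the marrow. Cd79a and Cd79b differed by 0.04 and -0.52, with overlap. Marrow pool 3 was the lowest marrow array for Cd79a (6.27) as well as for H2-Oa and H2-Ob.

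Macrophages and dendritic cells also express class II, and markers of these cells were read beside it. Of 19 such markers, 14 had a positive difference, as did 13486 of all 19938 genes. Without overlap 5 lay higher and 1 lower (14.8% and 7.27% of all genes). The median was 0.27, and their summed log2 level was 100.01 to 103.9 in the lamina propria and 97.2 to 100.02 in the marrow. In pools 1 and 2 their medians were 0.37 and 0.23. Most of them had a marrow mean under 6, where the level groups of all genes had medians of 0.40 to 0.54 in these pools. In pool 3, 15 of the 19 lay above the marrow mean (9656 of all 19938 genes did) and 8 above every marrow pool (24.8%). Their median there was 0.16, against -0.01 over all genes. The complement genes C1qa, C1qb and C1qc, named after their values were seen, lay 0.69, 0.72 and 0.84 above the marrow mean in pool 3. The macrophage markers Cd68 and Adgre1, also named after their values were seen, lay -0.84 and -0.12 from it. Cd68 was the 1 marker of the list that lay lower without overlap. Csf1r, a receptor of macrophages, had values of 5.23, 5.22 and 5.58 in the lamina propria pools, against 4.55, 4.74 and 4.60 in the marrow pools, without overlap. It lay 0.60, 0.59 and 0.95 above the marrow mean in lamina propria pools 1, 2 and 3. All genes with a marrow mean of 4 to 5 had medians of 0.52, 0.54 and 0.006. The dendritic cell integrin Itgax had 4.58, 5.01 and 4.19 in the lamina propria pools, against 4.07, 4.13 and 4.32 in the marrow pools, and was thus not high in pool 3. Itgam lay -0.56, -1.19 and -0.34 from the marrow mean in pools 1, 2 and 3. Lyz2, a lysozyme of macrophages and granulocytes, named after its values were seen, had 5.16, 5.29 and 7.88 in the lamina propria pools, against 6.40, 6.94 and 6.29 in the marrow pools. RMA values have no true zero, and the part of these cells in the class II values was not tested.

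Markers of other cells gave positive differences at the median, as did all genes (0.22). Of 8 measured T cell markers, 8 were positive and 5 lay higher without overlap (14.8% of all genes did). Their median was 0.45, with a summed log2 level of 39.4 to 42.9 in the lamina propria and 37.6 to 37.8 in the marrow. Cd3e, Cd3d and Cd3g differed by 0.64, 0.43 and 0.24. Of 14 epithelial markers, 13 were positive, 5 lay higher and 1 lower without overlap (14.8% and 7.27% of all genes). Their median was 0.45, with a summed log2 level of 72.7 to 75.8 in the lamina propria and 69.2 to 70.0 in the marrow. Epcam, Vil1 and Cdh1 differed by 0.46, 0.25 and 0.55. In lamina propria pools 1, 2 and 3 the medians were 0.51, 0.68 and 0.23 for T cell markers. For epithelial markers they were 0.50, 0.33 and 0.29, where all genes had 0.31, 0.31 and -0.01. The T cell markers and most epithelial markers had a marrow mean under 6. Genes with a marrow mean under 4, of 4 to 5 and of 5 to 6 had medians of 0.40, 0.52 and 0.44 in pool 1. These medians were 0.50, 0.54 and 0.40 in pool 2, and 0.01, 0.006 and -0.02 in pool 3. In pools 1 and 2 only the T cell median of pool 2 lay above all of them, and in pool 3 both medians did. Of 9 granulocyte markers 5 were positive (median 0.16, summed log2 level 45.3 to 50.3 in the lamina propria and 46.3 to 56.1 in the marrow), with S100a8 and S100a9 at -1.36 and -2.00 and Mpo at 0.16. Of 7 plasma cell markers 5 were positive and 3 lay higher without overlap (14.8% of all genes did). Their median was 0.29, with a summed log2 level of 39.2 to 44.5 in the lamina propria and 38.0 to 41.3 in the marrow. Sdc1 and Xbp1 differed by -0.03 and 0.29. Jchain, the joining chain of secreted antibody, named after its values were seen, had 4.79, 3.83 and 4.64 in the lamina propria pools. The marrow pools had 3.24, 2.78 and 3.01, a difference of 1.41 (limma adjusted p = 0.268). These marrow values stood low, at percentiles 6.8, 3.4 and 4.8 of all genes. Mzb1 of the same list, also named after its values were seen, went the other way, with a difference of -0.54 and overlap. The plasma cell list shares Prdm1 and Irf4 with the regulators of Ciita. The part of these cells in the class II values was not tested.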

How the data were processed

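RNA from 3 lamina propria and 3 bone marrow pools was amplified from 4.5 to 47 ng, per the labels' protocols, and measured on whole-transcript arrays. Per the submitters' processing notes, RMA and Affymetrix Expression Console (1.3.0.187) gave the log2 values that the authors deposited, which were used unchanged; the RMA settings are not stated there. Of 35556 probe sets, the platform table gave 1 symbol for 21789, several for 1621 and did not list 12146. Where probe sets shared a symbol (999 genes), the one with the highest mean was kept, for 19938 genes in all.

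The difference between tissues was fitted with lmFit and eBayes (limma 3.58.1, R 4.3.3; two-sided, no block, no trend), adjusted by Benjamini-Hochberg over all genes at 0.05. Pools are the replicates, so p-values measure their spread and 6 arrays limit the precision. An exact test of 3 against 3 cannot go below 0.1 and was not used. The fit was tested on simulated data. The members and lists were chosen with earlier results of these data known. The plan allowed naming all members and genes of the pathway lists, up to 3 defining markers per cell type, Pax5 and Ebf1, and the 5 genes nearest to the class II profile. Beyond the plan, C1qa, C1qb, C1qc, Lyz2, Cd68, Adgre1, Jchain and Mzb1 were named after their values were seen. Some listed genes are not reported here. Alternative settings were a block on pool number, dropping dim genes (kept when above the array median in at least 3 arrays), 2 further scalings, trend with robust variances, array weights, the mean of probe sets, a threshold of 0.01 and leaving out arrays. Medians of pathway lists by pool and the shorter X box core were added after seeing the data. Figures were drawn with matplotlib 3.10.9.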

Additional observations from a re-analysis of the deposited data

How the results depend on the processing

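With 6 arrays and lamina propria pool 3 apart from pools 1 and 2, the number of genes called (0) depended on the setting: 16 with the pool number as a block, 40 with trend and robust variances, 5586 with array weights (3368 higher, 2218 lower), and 0 to 7222 when each array was left out in turn, the highest without lamina propria pool 3 (4806 higher, 2416 lower). Whether the pool numbers mark a pairing is unknown, since no label states it. Deviations from the tissue mean correlated at r = 0.13, 0.05 and 0.23 for same-numbered pools, and at -0.21 to 0.13 for differently numbered pools. With the pool number as a replicate block no member passed (Cd74 adjusted p = 0.0679 in limma). The count of members without overlap (2) ran from 2 to 4 without 1 array, the highest without lamina propria pool 2. It was 5 in pool 3 alone, where 24.8% of all genes lay higher and 26.7% lower. Over all 19938 genes the counts moved too, from 2960 higher and 1450 lower with all arrays. They were 3373 and 1788 without lamina propria pool 2. Without lamina propria pool 3, where 2 members lay higher, they were 10218 and 3728. The array weight was 0.15 for lamina propria pool 3 and 0.70 to 2.80 for the other arrays, so the weighted fit came close to leaving pool 3 out. Of 110 values of single members under the alternatives, 99 kept direction and side of the threshold, 4 gained a call and 7 turned round. The 4 were Cd74 and Ciita, without lamina propria pool 3 and with array weights. Those that turned were H2-Ab1 with array weights (-0.158), H2-Ob in pool 3 alone (0.115), and values without 1 array, where H2-Aa ran from -0.015 to 1.376, H2-Ab1 from -0.36 to 1.084 and H2-Oa from -0.503 to 0.357. The median over all genes moved from 0.22 to 0.13 under a common median and interquartile range, where Cd74 differed by 1.49 and Ciita by 0.45. Among pathway medians, that of the region genes was 0.602 and 0.546 under quantile normalization and the common range (main value 0.71), and that of the promoter factors -0.203 under quantile normalization. By pool, the promoter factors gave 0.05 in pool 3 alone and -0.849 in pools 1 and 2, and the endolysosomal genes 0.334 in pool 3 alone. With H2-Ab1 alone as the profile, H2-Oa and H2-Ob ranked 18953 and 19541. H2-Aa and H2-DMa were removed by the dim filter and have no value under it. The cause of these shifts was not tested.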
